A study of Macaca fascicularis with 44 samples.

Results

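Gene expression in the basolateral amygdala (BLA) was compared with that in another brain region, the anterior cingulate cortex (ACC), in saline-treated female macaques of the species Macaca fascicularis. RNA-seq counts from 5 BLA libraries were set against those from 6 ACC libraries, 11 of the 44 libraries in the series. The members were chosen by the tissue and treatment labels. The sixth BLA saline library, replicate 5, was left out because its values had been atypical in an earlier look at the same data. Its values are given beside the results. The other libraries of the series came from the anterior and posterior dentate gyrus and from animals given betamethasone, a synthetic glucocorticoid. From these, 4 BLA and 6 ACC betamethasone libraries served as a second measurement of the same regional difference, and 6 saline libraries of the posterior dentate gyrus as a further region. The labels used here give no age, dose, duration or genotype. They leave unsaid whether each replicate was its own animal and whether the regions share animals. The p-values therefore rest on library-to-library spread, part or all of which may be technical, and the main test treated the libraries as unpaired.

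The basolateral amygdala is a deep group of nuclei in the temporal lobe. Its principal neurons are glutamatergic and resemble cortical pyramidal cells, and it is known for learning about threat and reward. The anterior cingulate cortex is a layered cortical area of the medial frontal lobe, known for its part in attention, pain and the control of emotion. The areas are directly connected in both directions, and both carry receptors for glucocorticoids.

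The deposited tables give genes by Ensembl-style identifier without names, and 0 of the 17293 different identifiers matched the RefSeq gene table used here. Genes are therefore described by identifier, level and group, with no function, position or sequence, and the labelled tissues could not be set against named marker genes. For the same reason the lists of cell type markers and receptors were not applied, and the share of other cell types in each dissection was not analysed here. Only 2 identifiers in each direction are named for the regional difference. In bulk tissue, fewer cells of a type and less RNA per cell cannot be told apart.

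The compared libraries held 39585925 to 61901635 gene reads each in BLA and 30955135 to 48658744 in ACC. Levels are given as CPM, counts scaled to the gene reads of the library, with no correction for gene length, so any order or class of genes by CPM mixes gene length with amount. A total of 3 reads, taken as the lowest level told from 0, corresponded to 0.0485 to 0.0969 CPM, counting error only. Of 8 measures taken per library, 2 differed between the regions. The 100 most abundant genes took 15.8% ± 0.355 of gene reads in BLA (SD, n = 5) and 14.9% ± 0.372 in ACC (SD, n = 6), and none of these 5 BLA libraries lay at or below an ACC library (two-sided exact permutation p = 0.00433, the smallest that 462 splits allow; adjusted p = 0.0173 over 8 measures). Reads that could not be given to a single gene made up 0.429% ± 0.0242 of mapped reads in BLA and 0.370% ± 0.0220 in ACC, again without overlap (exact permutation p = 0.00433, adjusted p = 0.0173). BLA replicate 5, at 14.9% and 0.389%, lay within the ACC range of both measures, so the separation holds only without it; with it kept the exact permutation test gave an adjusted p of 0.0379 for both. The shares of unmapped reads, of reads outside annotated genes and of reads on the opposite strand did not pass (adjusted p = 0.881, 0.881 and 0.750). Neither did depth (0.814), the number of genes at 1 CPM or more (0.896) or the TMM scaling factor (0.881).

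The first question was which genes differed between the regions in the saline libraries. BLA and ACC differed at 5008 of 14668 genes tested (34.1%). A total of 2450 genes were higher in BLA (16.7%) and 2558 higher in ACC (17.4%) at an adjusted p under 0.05 in edgeR's quasi-likelihood test. Most differences were small. The median size among the called genes was 1.63-fold, 3377 of them (67.4%) differed by less than 2-fold, and 1631 genes (11.1% of those tested) differed by at least 2-fold. Over all genes tested the median difference was 0.01 on the log2 scale, so the scaling placed the regions at the same overall level. Complete separation of the 11 libraries was found for 3055 genes (20.8%), 1319 with every BLA library above every ACC library and 1736 the other way, and 2986 of these were among the called genes. With BLA replicate 5 kept, 3976 genes were called, and 53 of the 5008 turned direction.

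**Figure D1:**
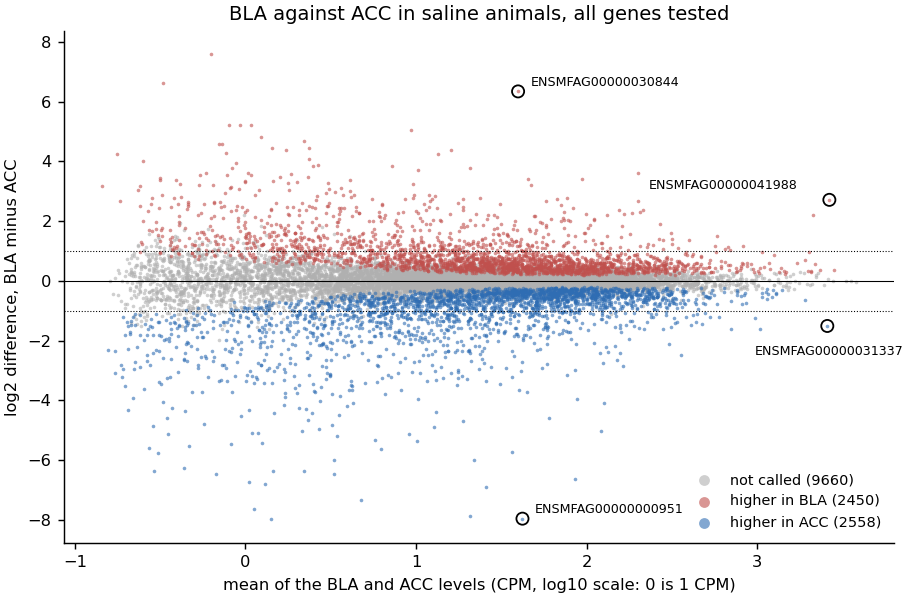
Each point is 1 of the 14668 genes tested in the saline libraries, with the mean of its BLA and ACC levels on the horizontal axis (CPM, log10 scale) and the log2 difference, BLA minus ACC, on the vertical axis. Red points (2450) were higher in BLA, blue points (2558) higher in ACC and grey points were not called; dotted lines mark 2-fold and circles the 4 named identifiers. At 4-fold or more, 319 of the blue points and 210 of the red points remain.

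Large differences were more often toward ACC. At 2-fold or more, 693 genes were higher in BLA and 938 in ACC. At 4-fold or more the counts were 210 and 319, at 8-fold 64 and 141, at 16-fold 20 and 59, and at 32-fold 7 and 33. The 4-fold count for BLA followed the treatment of weakly expressed genes. It was 336 with no filter on low counts, and 137 when at least 1 CPM was asked for in 5 or more libraries. The 4-fold counts for ACC under those settings were 452 and 241.

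Of the 210 genes at least 4-fold higher in BLA, 180 had no overlap between the libraries of the regions, and of the 319 at least 4-fold higher in ACC, 294 had none. Over all genes tested, 3055 of 14668 (20.8%) had none. These genes were picked by test and size on the same libraries, so their separation is largely built in. The median level of the 210 genes was 4.95 CPM in BLA and 0.721 CPM in ACC. The median level of the 319 genes was 5.13 CPM in ACC and 0.523 CPM in BLA. Genes present in one region and near the detection floor in the other were few. A level above 1 CPM in all 6 ACC libraries with less than 0.1 CPM in all 5 BLA libraries was found for 3 genes, and the reverse for 0 genes. With less than 1 CPM as the limit for the low region, 86 genes stood above 1 CPM in every ACC library, and 43 in every BLA library.

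The share of genes called was lowest, 27.8% of 1173 genes, at a mean of 1 CPM or less and highest, 38.3% of 2506 genes, above 100 CPM. It was 32.8% to 34.4% in the classes between. The size of the called differences fell with level. Among called genes, 90.5% differed at least 2-fold in the lowest class, 37.3% between 5 and 20 CPM, and 11.99% above 100 CPM. Of all genes tested, called or not, those called at 2-fold or more were 295 of 1173 in the lowest class and 115 of 2506 above 100 CPM. A weakly expressed gene has a noisier estimate and needs a larger difference to be called. The filter on low counts can also keep a weak gene through the region where it is high, so large differences in the lowest class may be partly built in. The part of either in the fall was not tested. Calls in both directions were near equal in number above 100 CPM, with 492 higher in BLA and 467 in ACC. The most abundant genes were largely the same, and 82 identifiers stood among the 100 most abundant of both regions. Of the 118 identifiers in either list, 57 were called, 36 higher in BLA and 21 in ACC, and 9 differed at least 2-fold, 5 toward BLA and 4 toward ACC. For comparison, 34.1% of all genes tested and 38.3% of those above 100 CPM were called. Calls of at least 2-fold made up 11.1% of all genes tested.

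Among the genes with no overlap between regions and at least 5 CPM in the higher one (1069 toward BLA, 1403 toward ACC), the identifier with the largest difference toward BLA was ENSMFAG00000030844. The 5 BLA libraries held 73.4, 72.4, 81.0, 94.7 and 69.8 CPM (replicates 1, 2, 3, 4 and 6). The ACC libraries held 0.747 to 1.32 CPM, with a median of 0.948 and at least 34 reads each. All BLA values lay within a narrow band, far above the highest ACC value. The means were 78.3 ± 10.1 CPM (SD, n = 5) and 0.975 ± 0.207 CPM (SD, n = 6), 80.3-fold apart, and the fitted difference was 6.34 ± 0.15 on the log2 scale (SE; adjusted p = 7.98e-12 in edgeR). BLA replicate 5 held 185.9 CPM, above every compared library. In the posterior dentate gyrus this identifier ranged from 8.95 to 86.3 CPM, so single dentate libraries reached the BLA level and others did not.

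Among the same genes without overlap, the most abundant identifier at least 2-fold higher in BLA was ENSMFAG00000041988. Its BLA libraries held 5204, 3435, 7412, 2317 and 4560 CPM, and its ACC libraries 400.3 to 1047 CPM with a median of 688.8. By that choice the lowest BLA library stood above the highest ACC library, but the BLA values spread more than 3-fold. The means were 4585 ± 1927 CPM (SD, n = 5) and 701.5 ± 245.9 CPM (SD, n = 6), which differed by 2.71 ± 0.29 on the log2 scale (SE; adjusted p = 1.01e-05 in edgeR). In BLA replicate 5 it stood at 1032 CPM, within the ACC range. The posterior dentate gyrus held 2533 to 5248 CPM, the level of BLA rather than of ACC.

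Toward ACC, the largest difference among the genes without overlap and at 5 CPM or more in ACC was that of ENSMFAG00000000951. It stood at 0.258, 0.322, 0.654, 0.379 and 0.106 CPM in the BLA libraries, from 5 to 28 reads each, and at 29.7 to 126.3 CPM in ACC, with a median of 95.9. The ACC values fell into a low pair, replicates 3 (29.7 CPM) and 5 (35.1 CPM), and 4 libraries from 89.0 CPM upward. The means were 0.344 ± 0.201 CPM (SD, n = 5) and 83.7 ± 41.9 CPM (SD, n = 6), a difference, BLA minus ACC, of -7.95 ± 0.54 on the log2 scale (SE; adjusted p = 2.01e-07 in edgeR). BLA replicate 5 held 0.482 CPM, within the range of the other BLA libraries. In the posterior dentate gyrus the identifier was patchy, from 1.16 to 108.9 CPM with a median of 6.76.

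Again among the genes without overlap, the most abundant identifier at least 2-fold higher in ACC was ENSMFAG00000031337. BLA libraries held 1265, 1015, 1436, 1587 and 1372 CPM, and ACC libraries 3173 to 4568 CPM with a median of 3911. By that choice no BLA library reached the lowest ACC library, and both groups spread by less than 2-fold. The fitted difference was -1.51 ± 0.13 on the log2 scale (SE; adjusted p = 1.3e-06 in edgeR), from means of 1335 ± 213.6 CPM (SD, n = 5) and 3807 ± 535.8 CPM (SD, n = 6). BLA replicate 5 held 2472 CPM, between the regions. The posterior dentate gyrus held 1183 to 1767 CPM, below every ACC library.

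**Figure D2:**
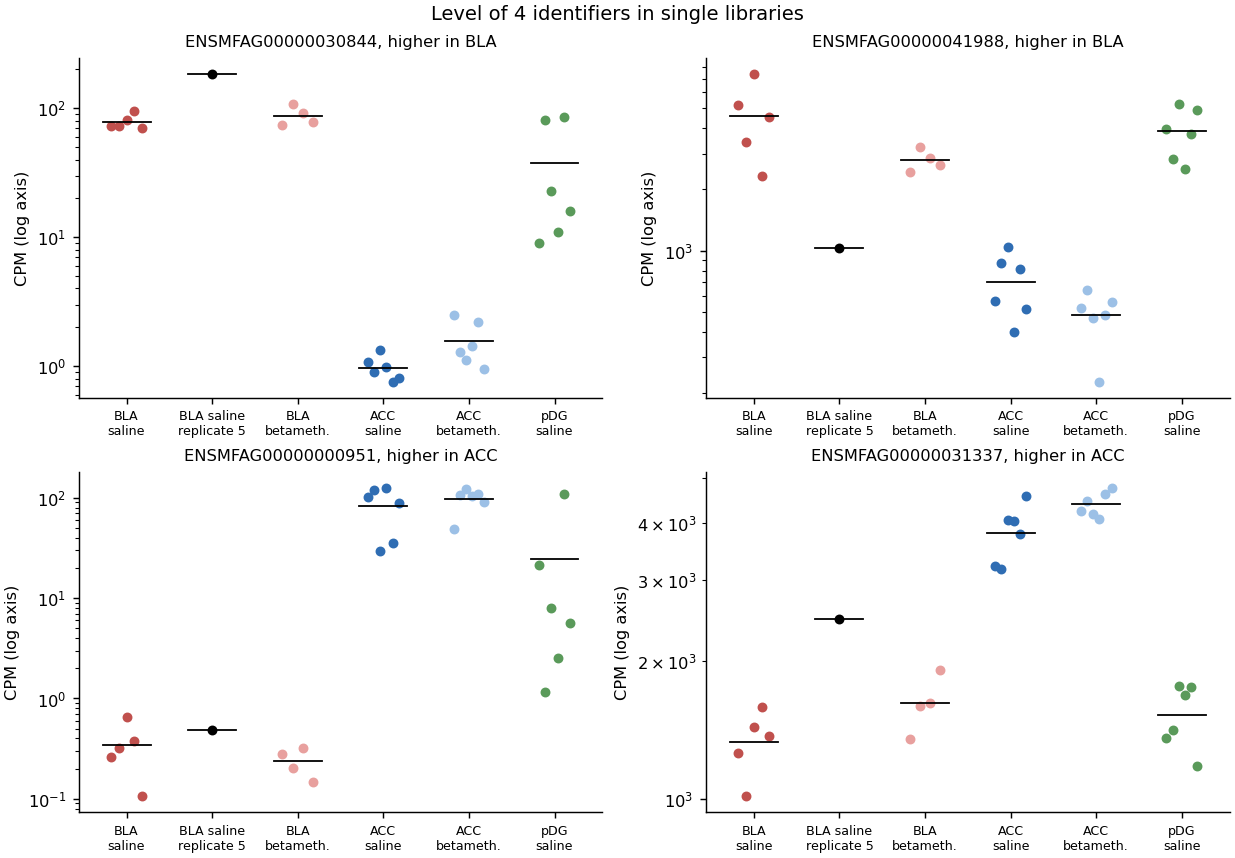
Each point is 1 library and each bar the group mean, in CPM on a log axis, for the 2 identifiers named toward BLA and the 2 named toward ACC. All 4 were chosen among genes without overlap, so the 5 BLA saline libraries lie apart from the 6 ACC saline libraries by that choice. BLA saline replicate 5 (1 black point) lies outside the range of the other BLA libraries in 3 of the 4.

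The same regional difference was then measured in the betamethasone libraries, which share no library with the saline comparison. In those 4 BLA and 6 ACC libraries 6770 of 14667 genes were called (46.2%), 3262 higher in BLA (22.2%) and 3508 in ACC (23.9%). Of the 5008 saline calls, 4973 were tested there, 4923 had the same direction and 4180 (84.1%) were also called in it. The shares called again were 79.9% for genes higher in BLA and 88.1% for genes higher in ACC. Over all 14541 genes tested in both, 82.5% had the same direction and 44.6% were called in it. Seen from the betamethasone side, 61.7% of its calls were also saline calls in the same direction. Of the 2527 betamethasone calls tested but not called in saline, 2312 had the same direction there. The larger number of betamethasone calls came with a smaller spread between libraries, and the part of the spread in that number was not tested. The biological coefficient of variation, fitted in each group alone, was 19.0% in BLA and 15.6% in ACC, against 22.5% and 21.96% in the saline groups and 33.2% in BLA saline with replicate 5.

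Large differences came back at nearly full size. Of the genes at least 4-fold higher in BLA in saline, 197 of 210 were tested with betamethasone and 189 were called in the same direction, with a median log2 difference of 2.44 against 2.52 in saline. Of those at least 4-fold higher in ACC, 314 of 319 were tested and 310 called, with medians of -2.96 and -2.83. Among called genes under 2-fold in saline, 80.3% of 3375 were called again. The 4 named identifiers were called with betamethasone too, at log2 differences of 5.82 ± 0.23 (ENSMFAG00000030844), 2.55 ± 0.21 (ENSMFAG00000041988), -8.59 ± 0.34 (ENSMFAG00000000951) and -1.41 ± 0.09 (ENSMFAG00000031337; SE throughout). As a description across genes, which are not independent replicates and share libraries and depth, the log2 differences of the treatments gave r = 0.92 (Pearson) and rho = 0.84 (Spearman) over 14541 genes.

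**Figure D3:**
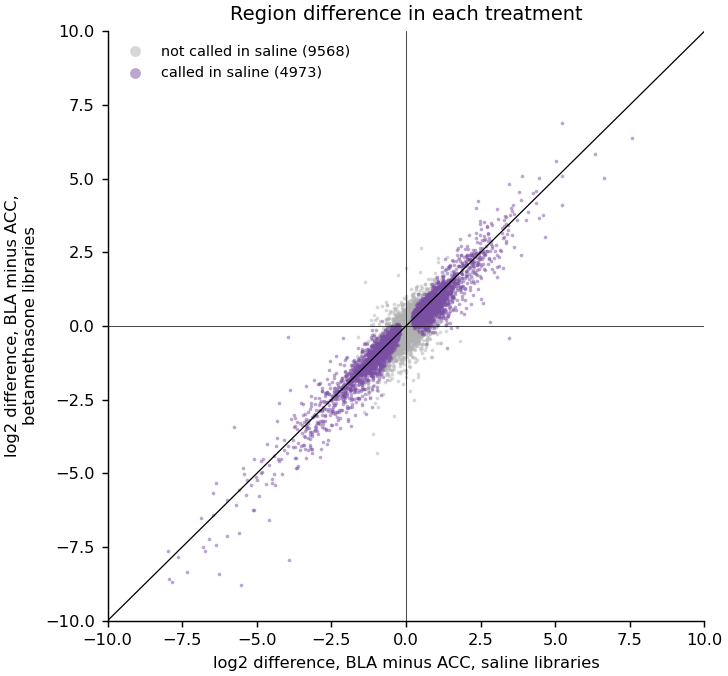
Each point is 1 of 14541 genes, with the log2 difference, BLA minus ACC, in saline libraries on the horizontal axis and in betamethasone libraries on the vertical axis; the diagonal marks equal values. The 4973 genes called in saline (purple) lie along the diagonal in both directions.

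Whether the regional difference itself changed with betamethasone was tested as a region by treatment interaction over the 21 libraries. In edgeR 0 of 15035 genes passed (0% called, lowest adjusted p = 0.404), and 796 genes (5.29%) had an unadjusted p under 0.05. DESeq2 called 3 genes, all with a regional difference shifted toward ACC. The 2 with the lowest p were also the 2 that edgeR called when BLA saline replicate 2 was left out. ENSMFAG00000001307 held 0.494 to 5.72 CPM in BLA saline, 0.0956 to 0.452 in ACC saline, 0.799 upward in BLA betamethasone (mean 1.47 ± 0.576, SD, n = 4) and 0.789 to 4.21 in ACC betamethasone. Its saline groups did not overlap and its betamethasone groups did, with log2 differences of 3.46 and -0.40 (interaction -3.85, edgeR adjusted p = 0.404; DESeq2 adjusted p = 0.00304; edgeR without BLA saline replicate 2 -4.12, adjusted p = 0.0295).

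ENSMFAG00000000085 was the 1 identifier called in opposite directions in the treatments. It averaged 22.2 ± 6.84 CPM in BLA (SD, n = 5) and 13.9 ± 2.31 in ACC (SD, n = 6) with saline, a log2 difference of 0.68 (edgeR adjusted p = 0.0147). With betamethasone it averaged 15.05 ± 1.75 in BLA (SD, n = 4) and 23.2 ± 4.18 in ACC (SD, n = 6), a log2 difference of -0.60 (edgeR adjusted p = 0.00319). The interaction was -1.27 with an edgeR adjusted p of 0.404 and a DESeq2 adjusted p of 0.00735. Without BLA saline replicate 2 it was -1.43 in edgeR (adjusted p = 0.00815). The call thus rested on the method and on 1 library. The named identifiers of the saline comparison had interactions between -0.63 and 0.11 on the log2 scale, and their edgeR adjusted p were at least 0.866.

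The genes at least 4-fold different were followed as 2 lists through single libraries. Because these lists were chosen on the saline libraries, their levels there are a description. The 210 genes higher in BLA took 0.970% to 1.95% of gene reads in the BLA saline libraries (median 1.46%) and 0.186% to 0.351% in ACC (median 0.258%). The betamethasone libraries, which had no part in the choice, held 0.929% to 1.16% in BLA and 0.129% to 0.221% in ACC. The groups did not overlap in either treatment. The list was top-heavy, with 2 genes holding more of its BLA reads than all the others together. The first, ENSMFAG00000041988, held 31.7%. Without those 2 genes, the list took 0.641% ± 0.0803 of reads in BLA (SD, n = 5) and 0.116% ± 0.0121 in ACC (SD, n = 6).

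The 319 genes higher in ACC took 0.701% to 0.940% of reads in ACC saline libraries (median 0.903%) and 0.104% to 0.156% in BLA (median 0.131%). With betamethasone the ranges were 0.854% to 0.984% in ACC and 0.126% to 0.155% in BLA, again without overlap. This list was spread over more genes, and its 17 most abundant were needed to match the reads of all the others in ACC. Within the region where a gene was high, the highest library exceeded the lowest by a median of 2.64-fold for the BLA list and 2.57-fold for the ACC list.

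**Figure D4:**
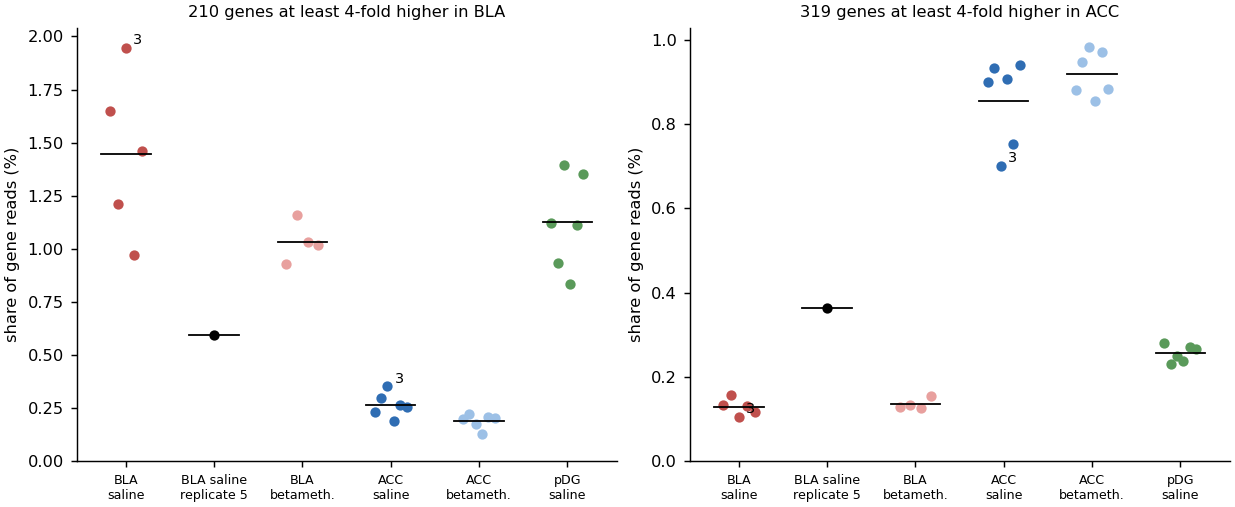
Share of gene reads (percent) taken in each library by the 210 genes at least 4-fold higher in BLA (left) and the 319 genes at least 4-fold higher in ACC (right), with group means as bars and replicate 3 of both saline groups marked. BLA saline replicate 5 lies between the BLA and ACC groups on both sides, at 0.594% and 0.363%.

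Replicate 3 of each region lay at the end of its group in both lists. Their title numbers are 31 apart, as in other pairs of BLA and ACC libraries, and their deviations from the group means had r = 0.63 across genes, the highest of the matched pairs; the labels do not say whether they share an animal. BLA replicate 3 held the largest share of the BLA list (1.95%) and the smallest of the ACC list (0.104%) among the 5 BLA libraries. It was the highest BLA library at 79 of the 210 BLA-list genes. ACC replicate 3 likewise held the largest share of the BLA list (0.351%) and the smallest of the ACC list (0.701%) among the ACC libraries, and was the lowest ACC library at 118 of the 319 ACC-list genes. These same libraries had the largest shares of reads outside annotated genes in their groups, 36.5% and 36.3%, against 28.6% to 33.4% and 27.99% to 34.6% in the others. With both left out, an alternative chosen after seeing the data, 4603 genes were called and 1569 differed at least 2-fold. With the share of reads outside genes as a covariate the counts were 5166 and 1603.

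BLA replicate 5 was placed on the same lists, on a scale of log2(CPM + 0.5) where 0 is the mean of the region in which a gene is low and 1 the mean of the region in which it is high. The median position of the BLA-list genes was 0.28 in that library, against 0.81 to 1.16 in the 5 compared BLA libraries and -0.04 to 0.04 in the ACC libraries. The compared libraries chose both lists and set the scale, so their positions near 0 and 1 are built in. Replicate 5 had no part in either, and a BLA library outside the choice can fall below 1 for that reason alone. At 126 of the 210 genes the level of replicate 5 was nearer to the ACC mean or below it. At the ACC list the median position of replicate 5 was 0.03, slightly above the -0.06 to 0.02 of the 5 compared BLA libraries. Of its 319 genes, 266 were nearer to the BLA mean or below it, although the list's share of reads in replicate 5, 0.363%, was above that of every other BLA library. Its share of reads outside genes, 37.2%, was also above theirs, and the part of this in its position was not tested. It exceeded both regional means at 40 genes of the BLA list and 29 of the ACC list.

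The posterior dentate gyrus, which had no part in choosing the lists, was placed on the same scale. At the 319 genes higher in ACC its mean lay nearer to the BLA mean or below it at 267, with a median position of 0.08, and it lay below both regions at 100. Only 52 genes (16.3%) stood nearer to the ACC level or above it. These positions rest on the mean CPM of the dentate libraries, which a single high library can raise. ENSMFAG00000000951, for example, had a position of 0.74, with a highest library of 108.9 CPM and a median of 6.76. At the 210 genes higher in BLA it was split, with 116 (55.2%) nearer to the BLA mean or above it and 94 nearer to the ACC mean or below it (median position 0.58). In reads, the dentate libraries took 0.834% to 1.39% for the BLA list and 0.230% to 0.280% for the ACC list. Without the 2 most abundant genes of the BLA list, their share was 0.414% ± 0.0494 (SD, n = 6), between 0.641% in BLA and 0.116% in ACC. Replicate 6 of this group had 31.4% unmapped reads, against 11.9% to 14.7% in the other 5, and its shares, 1.35% and 0.267%, lay within their range. Most genes of the ACC list were thus near or below their BLA level in this further region, while those of the BLA list were spread between the levels of both regions. No test was made, since the lists were built from the BLA and ACC levels that set the scale.

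**Figure D5:**
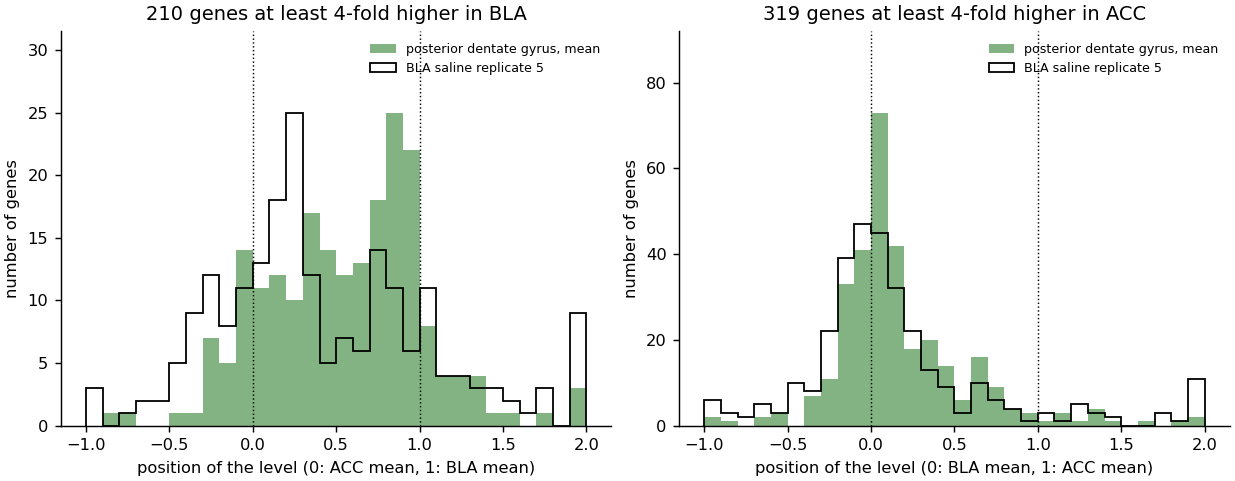
Number of genes by position of their level on a log2(CPM + 0.5) scale, where 0 is the mean of the region in which the genes are low and 1 the mean of the region in which they are high; values beyond the axis are drawn in the end bins. The posterior dentate gyrus (green) centres near 0 for the 319 ACC genes and spreads from 0 to 1 for the 210 BLA genes, and BLA saline replicate 5 (black line) has 126 of the BLA genes nearer to 0 than to 1 or below 0.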

How the data were processed

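The deposited values are raw gene counts, 1 table a library. Per the submitters' processing notes the authors used STAR. Which release, genome and gene models it ran with is not given in the sources used here. Column 4, the count of 1 strand, was used, since its gene total exceeded the opposite strand 54.9 to 75.3 times in the compared libraries. Rows naming no gene were dropped, and 139 identifiers on more than 1 row (1.32% to 1.72% of gene reads) were summed. Multimapping reads were listed as 0, so reads of near-identical gene copies may be missing or split. Unmapped reads were 12.2% to 16.9% of the total, and reads outside genes 27.99% to 36.5% of those mapped.

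Libraries were grouped by the tissue and treatment labels, and replicates numbered in accession order. The 11 libraries entered a robust quasi-likelihood fit in edgeR 4.0.16 (R 4.3.3) after TMM scaling. Low genes were removed by filterByExpr at a minimum count of 10 and a total of 15. Adjustment was by Benjamini-Hochberg over all genes kept, threshold 0.05. SE is the log2 difference divided by the square root of F. The betamethasone libraries had their own fit, and the interaction a fit of all 21. CPM was computed from the deposited counts over all gene reads of a library. DESeq2 1.42.0, limma 3.58.1, other scaling, filters, strand counts and a covariate, and leaving out each library, were alternatives. The fits of BLA against ACC in edgeR, DESeq2 and limma voom were tried on simulated counts, with far fewer changed genes than were called here. The interaction, pairing, permutation and list steps were not simulated. Of the genes passing the test, without overlap and at 5 CPM or more in the higher region, the identifier with the largest difference and the most abundant at 2-fold or more were named in each direction. For the interaction, 2 identifiers are named that DESeq2 called, chosen after their values were seen. The libraries, lists and tests were chosen with earlier results of these data known.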

Additional observations from a re-analysis of the deposited data

Results flagged for a closer look

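In 65 sets of values, each 1 measure in a group of 4 to 6 libraries, 4 held a library far from the rest of its group. Chance gives about 1 in 20, so this number of flags is near the chance rate. The share of ambiguous reads in BLA betamethasone replicate 3 was 0.438%, against at most 0.398% in the other 3. The share of unmapped reads in ACC betamethasone replicate 2 was 13.1%, against at most 12.1% in the other 5. In the saline libraries of the posterior dentate gyrus, replicate 6 had 31.4% unmapped reads, against at most 14.7% in the others. In the same group ENSMFAG00000000951 stood at 108.9 CPM in replicate 5, against at most 21.5 CPM in the others. None of the sets from the compared BLA and ACC saline libraries held such a library, but BLA replicate 5, left out as atypical, is not among these.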

How the results depend on the processing

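The count of genes different in saline stayed within 1.5 times of 5008 under all 23 alternatives, from 3976 (BLA replicate 5 kept) to 6531 (replicate block by title number), and from 4294 to 5168 with 1 library left out. It was 5604 in DESeq2, 5062 in limma voom, 5097 with upper-quartile scaling (52.6% higher in BLA, against 48.9%), 5007 with the saline libraries of all 4 regions, 5043 with unstranded counts and 4968 without repeated identifiers. The count at 2-fold or more ran from 1329 to 1898, and 728 genes passed a test against a fold of 2. The direction and call of all 4 named identifiers held under every alternative. The betamethasone count ran from 6180 to 7255. The interaction gave 3 genes in DESeq2, 0 with BLA saline replicate 5 kept, and 0 to 2 with 1 library left out. With the title pairs as a block, an alternative chosen after seeing the data (18 libraries in 9 pairs), it gave 0 genes, 1300 at an unadjusted p under 0.05. The cause of these differences was not tested. BLA and ACC title numbers were 31 apart, or 33 after a gap, for 5 saline and 4 betamethasone pairs. Deviations from group means correlated above 0.1 in 4 of 5 and 3 of 4 (0.05 to 0.63 and -0.06 to 0.52). Unmatched pairs had medians of -0.12 (n = 25) and -0.05 (n = 20). The match was the best partner of the BLA library in 3 of 5 and 3 of 4. BLA saline replicate 2 correlated more with ACC replicate 6 (0.38) than with its match (0.30). This is no more than a hint from the data that regions may share animals. Depth limits genes of a few reads, and the missing names limit what any gene can tell.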
